A study of Mus musculus with 2 samples.

Results

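Probe sets for 10 genes of the circadian clock were examined in mouse liver RNA: Clock, Arntl, Per1, Per2, Per3, Cry1, Cry2, Bhlhe40, Dbp and Tef. A probe set was taken when the array's platform annotation assigned it to 1 gene only and that gene was 1 of the 10. All 10 genes were found, with 12 probe sets of the 10833 non-control probe sets that name 1 gene; 9 genes had 1 probe set each and Cry1 had 3. The series holds 2 single-colour Affymetrix arrays of 1 group, titled liver, and both arrays were made from commercial total RNA under the same catalogue entry. The source field of both samples names spleen, and the group used here follows the titles. Strain, sex, age, number of animals, RNA lot and the time of day at which tissue was taken are not given in the labels, and a difference between replicates may be technical in whole. With 1 group there is no comparison of conditions and no p-value.

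The circadian clock is a feedback loop of transcription that runs in nearly every cell. CLOCK and ARNTL (also called BMAL1) pair on DNA sites called E-boxes and activate the Per and Cry genes, whose proteins return to the nucleus and repress that pair. DBP and TEF, transcription factors made under the same control, bind D-boxes and carry the rhythm to enzymes of metabolism, while the nuclear receptors REV-ERB and ROR act through another site on Arntl. In mouse liver the transcripts of many of these genes rise and fall over the day, Arntl in a phase opposite to that of Per and Dbp, so that RNA of unstated collection time gives a level and not a rhythm.

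The sites through which this loop works were looked for around the annotated starts of the 10 genes. RefSeq windows on build GRCm38.p6, from 250 bases before to 50 bases after a start, covered 13 starts of 8 of the genes; Per2 and Bhlhe40 were not analysed here for motifs. The windows of Arntl overlap, and so do some of those of Clock, so the 13 windows are not all separate stretches. Both strands were searched. The E-box CACGTG was in windows of 3 of the 8 genes (Per1, Cry1 and Tef), in 4 of the 13 windows, and in 7.15% of the 32851 windows of all genes. Its variant CACGTT was in 2 of the 13 windows (Cry1 and Cry2) and in 4.68% of all windows. The D-box TTATGTAA was in 1 of the 13, that of Per3, which held it at 2 places, and in 0.938% of all windows. The ROR element TAGGTCA was in 1 of the 13, a window of Arntl, and in 2.61% of all windows. A second form of the D-box, TTACGTAA (0.119% of all windows), and the cAMP element TGACGTCA (1.79%) had no match in the 13. These matches describe letters in the windows, not bound sites, and none of the matches in the 13 windows overlapped another. The stretches below show each match in capitals with up to 30 bases on either side, 5′ to 3′ on the strand of the gene, because the factors of the loop are known to act through motifs of these kinds.
Per1, E-box, chr11:69098753-69098818, plus strand: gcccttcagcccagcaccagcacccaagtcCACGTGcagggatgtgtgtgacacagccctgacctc
Cry1, E-box variant (read as AACGTG on this strand) and E-box, chr10:85185079-85185163, minus strand: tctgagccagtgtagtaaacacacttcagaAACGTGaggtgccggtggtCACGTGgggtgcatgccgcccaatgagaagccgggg
Cry2, E-box variant (read as AACGTG), chr2:92434200-92434265, minus strand: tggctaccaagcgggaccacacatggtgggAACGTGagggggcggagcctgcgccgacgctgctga
Tef, E-box of the first start, chr15:81802516-81802581, plus strand: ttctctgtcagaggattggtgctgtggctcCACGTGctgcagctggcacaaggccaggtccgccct
Tef, E-box of the second start, chr15:81811246-81811311, plus strand: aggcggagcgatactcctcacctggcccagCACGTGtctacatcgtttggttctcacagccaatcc
Per3, D-boxes, chr4:151044786-151044900, minus strand: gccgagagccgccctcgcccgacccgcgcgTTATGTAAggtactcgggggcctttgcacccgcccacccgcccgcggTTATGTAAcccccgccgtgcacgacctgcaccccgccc
Arntl, ROR element, chr7:113207511-113207560, plus strand: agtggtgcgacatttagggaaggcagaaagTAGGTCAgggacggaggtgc

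The E-box lay 166 bases before the start in Per1, 60 bases in Cry1, and 127 and 138 bases before the 2 starts of Tef. The E-box variant lay 166 bases before the start in Cry2, and 79 bases in Cry1, so that Cry1 held both forms within its window. The D-boxes of Per3 lay 205 and 158 bases before its start. The ROR element of Arntl lay 30 bases after one of its 2 starts, on the transcribed side. No motif of the search was found in the windows of Clock and Dbp, which says only that these letters are not within these windows.

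**Figure D1:**
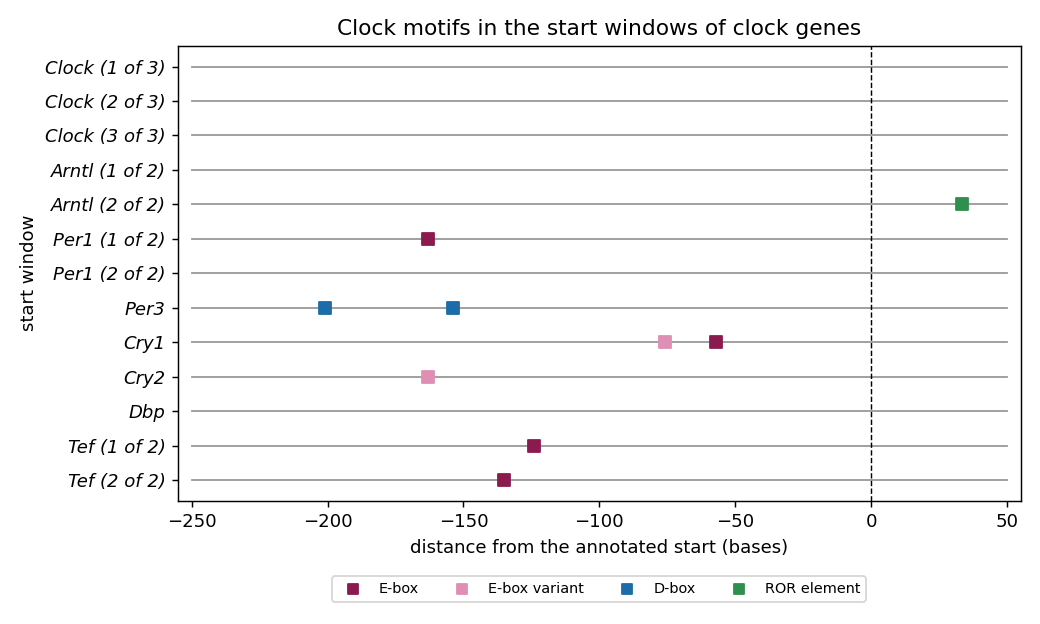
Positions of the motifs in the 13 start windows of 8 clock genes; the x axis is the distance in bases from the annotated start (dashed line), and each square is the centre of a match. The E-box squares of Per1, Cry1 and Tef and the E-box variants of Cry1 and Cry2 all lie before the start, and the ROR element of Arntl lies after it.

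A level is given as the signal intensity of a probe set, on the deposited linear scale, on replicates 1 and 2. The median signal of all 12488 probe sets was 163.2 on replicate 1 and 157.7 on replicate 2. A probe set was called above background when it exceeded, on each array, the 95th percentile of 75 genes of brain, pituitary, germ cells, retina, muscle and other tissues, which was 474.4 on replicate 1 and 622.2 on replicate 2. By this rule 2064 of 8251 named genes (25.0%) were above background on both arrays. Of the hepatocyte markers 9 of 10 were above it on both arrays, and the remaining one, Hpd, on replicate 1 only (504.2 and 598.3). Of the lymphocyte markers of spleen 0 of 9 were above it on both arrays, with signals from 15.3 to 623.3, and Ptprcap was on replicate 1 only (623.3 and 487.1). Hpd and Ptprcap were named after their values were seen. The number of arrays limits the precision of every value. Probe brightness depends on probe sequence, so signals of different genes are not compared as transcript amounts.

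The activator genes gave signals near the middle of each array and below background. Clock, which encodes a DNA-binding partner with histone acetyltransferase activity, gave 175.8 on replicate 1 and 147.6 on replicate 2, a mean of 161.7 ± 19.9 (SD, n = 2 arrays). Arntl, whose protein is the other partner, gave 210.7 and 126.1, a mean of 168.4 ± 59.8. Both genes were lower on replicate 2, and neither was above the threshold on either array. Clock stood at percentile 42.3 and Arntl at percentile 42.7 of all named genes by mean log2 signal.

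The Per genes, which encode the repressors that set the pace of the loop, were below background on both arrays as well. Per1 gave 250.9 on replicate 1 and 428.5 on replicate 2 (339.7 ± 125.6, n = 2), the widest relative gap among the probe sets that stand for a gene. Per2 gave 167.1 and 185.6 (176.4 ± 13.1, n = 2). Per3 gave 288.0 and 216.0 (252.0 ± 50.9, n = 2). Per1 and Per2 were higher on replicate 2 and Per3 was lower there. Their percentiles were 60.2 for Per1, 44.6 for Per2 and 53.0 for Per3.

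The Cry genes encode cryptochromes, the partners of the PER proteins that block CLOCK and ARNTL directly. Cry1 was represented by its brightest probe set, which gave 623.0 on replicate 1 and 540.1 on replicate 2 (581.6 ± 58.6, n = 2) and so was above the threshold on replicate 1 only. The other Cry1 probe sets gave 34.1 and 8.8 in one case and 4.8 and 1.0 in the other. The 3 sets of Cry1 therefore disagree: the bright one has the suffix f, by which the manufacturer marks probes shared within a sequence family, and both dim ones have the suffix r, which marks sets for which design rules were relaxed. The bright set and the first dim one were drawn from the same mRNA record, per the platform annotation. Cry2, from a single plain set, gave 439.7 and 497.0 (468.4 ± 40.5, n = 2), at 92.7% of the threshold's value on replicate 1 and 79.9% on replicate 2. Cry1 stood at percentile 73.3 and Cry2 at percentile 68.2.

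The 3 remaining genes were above background on both arrays. Tef, a factor of the PAR bZIP family that binds D-boxes, gave 1524.7 on replicate 1 and 1938.5 on replicate 2 (1732 ± 292.6, n = 2). Its signal was 3.21 times the threshold on replicate 1 and 3.12 times on replicate 2, at percentile 89.9. Dbp, a factor of the same family named for binding the albumin promoter, gave 607.6 and 673.8 (640.7 ± 46.8, n = 2), which is 1.28 and 1.08 times the threshold. Bhlhe40, whose protein (DEC1) binds E-boxes and represses from them, gave 609.3 and 709.1 (659.2 ± 70.6, n = 2), 1.28 and 1.14 times the threshold. Of these 3 genes, Tef was clear of the threshold by a wide margin and Dbp and Bhlhe40 lay just above it. Dbp stood at percentile 75.4 and Bhlhe40 at percentile 75.9.

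**Figure D2:**
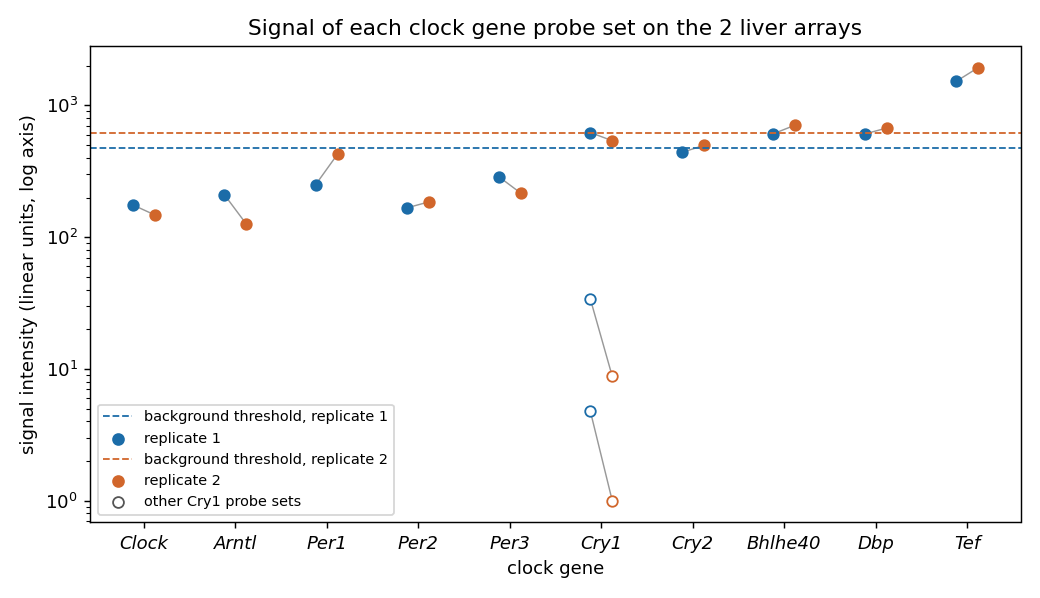
Signal intensity (log axis) of each clock gene probe set on replicate 1 (blue) and replicate 2 (orange), with the background threshold of each array as a dashed line. Filled points are the probe sets that stand for a gene, and open points are the other Cry1 sets. Tef lies at 1525 and 1939, above both lines, and Clock, Arntl, Per1, Per2 and Per3 lie below both.

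As a set, 3 of the 10 clock genes were above background on both arrays, 1 (Cry1) on 1 array and 6 on neither. The share of 30% stands beside 25.0% of all named genes, a share close to that of the whole array. Of all 8251 named genes, 585 were above background on 1 array and 5602 on neither. Grouped by role, 0 of 2 activators, 0 of 5 Per and Cry repressors, 1 of 1 E-box repressor and 2 of 2 D-box factors were above background on both arrays. The median percentile of the 10 was 64.2, with 61.2 on replicate 1 alone and 67.9 on replicate 2 alone, and their signals ran from 126.1 to 1938.5. The number above background depends on where the threshold is set. At the 90th percentile of the same 75 genes, 354.0 on replicate 1 and 350.0 on replicate 2, 5 of 10 were above it, with Cry1 and Cry2 added. At the signal of the second brightest of those genes on each array, 986.7 and 903.1, Tef alone was. The share of all named genes is given here at the 95th percentile only, so the 25.0% is no measure for the counts at other thresholds.

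**Figure D3:**
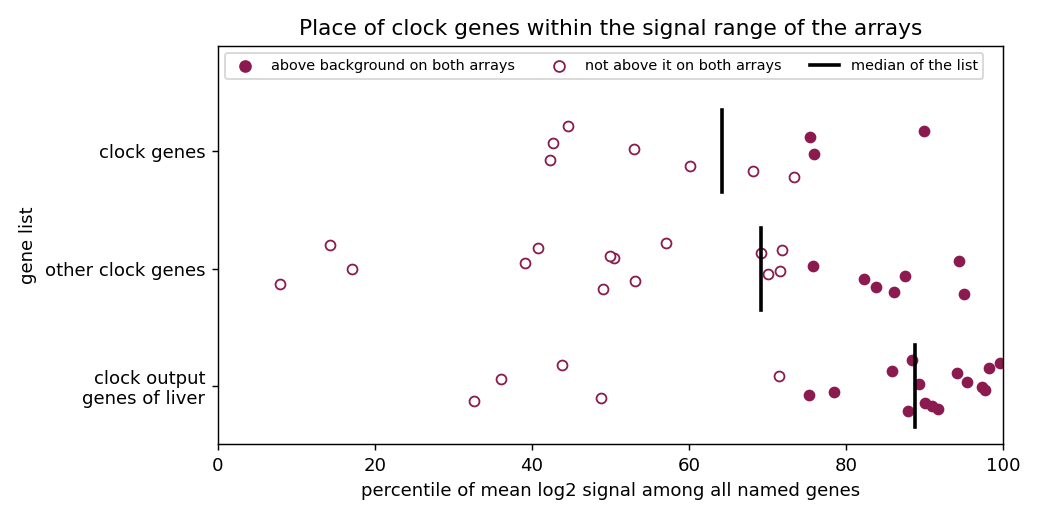
Percentile of the mean log2 signal among all 8251 named genes for the 10 clock genes, 21 other clock genes and 20 clock output genes of liver; vertical bars are the medians. Filled points were above background on both arrays: 3 of 10, 7 of 21 and 15 of 20.

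Differences between the arrays are log2 differences, replicate 2 minus replicate 1, after a median shift of -0.0058 was subtracted. Each was set beside the 500 probe sets nearest in mean log2 signal, as a description of how far such sets differed. Of the 10 clock genes, 0 differed by over 2-fold, whereas 1157 of 8251 named genes (14.0%) did, 494 of them higher (5.99%) and 663 lower (8.04%) on replicate 2. That background includes dim genes, among which the spread is wider. The median difference of the 10 was 0.16, with 6 higher and 4 lower on replicate 2, and that of all named genes was -0.02. Of all 8251 named genes, 3988 were higher and 4262 lower on replicate 2.

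Per1 and Arntl stood at the ends of the range. Per1 was higher on replicate 2 by 0.78, a ratio of 1.71, and 5.8% of its 500 neighbours differed by at least as much. Arntl had a difference of -0.73, a ratio of 0.601, and 19.6% of its neighbours differed by at least as much. Both genes were below background, where the SD of the log2 difference among neighbours was 0.38 for Per1 and 0.61 for Arntl. Tef was higher on replicate 2 by 0.35, a ratio of 1.28, and 8.0% of its neighbours differed by at least as much, since the SD at its signal was 0.21. Per1, Arntl and Tef were the 3 of 10 genes whose difference exceeded 1 SD of the neighbours. The share of all named genes past that SD was not computed, so the count does not set the clock genes apart from others.

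The other 7 differed by less than that SD. Per3 had a difference of -0.41, Clock -0.25 and Cry1 -0.20. Bhlhe40 was higher on replicate 2 by 0.22, Cry2 by 0.18, Per2 by 0.16 and Dbp by 0.15. In terms of roles, both activators were lower on replicate 2, both D-box factors and Bhlhe40 were higher, and the Per and Cry repressors were split, with 3 higher and 2 lower. Of the neighbours, 61.2% differed by at least as much as Clock, 53.8% as much as Dbp and 35.6% as much as Bhlhe40. With 1 array on each side these directions have no replicate check, and a pattern by role was not tested. The dim sets of Cry1 were the 2 of 12 probe sets past 2-fold, with differences of -1.95 and -2.26, at signals where the SD among neighbours was 1.48 and 1.63.

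**Figure D4:**
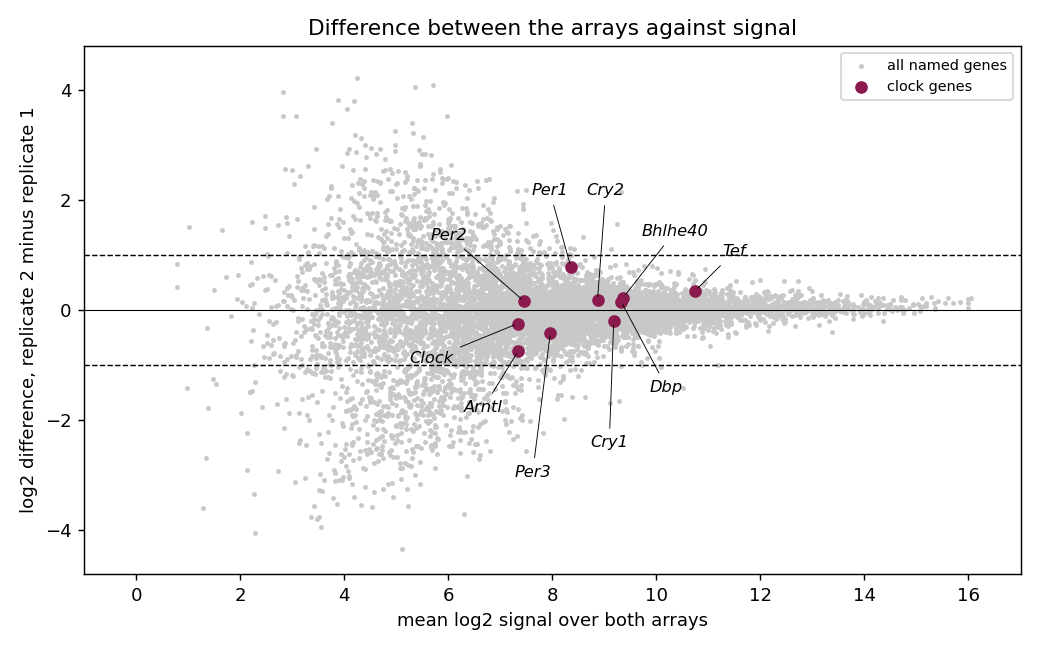
Log2 difference between the arrays (replicate 2 minus replicate 1) against the mean log2 signal over both arrays, for all 8251 named genes (grey) and the 10 clock genes (red); dashed lines mark a 2-fold difference. The clock genes lie within the dashed lines, from -0.73 for Arntl to 0.78 for Per1.

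Other genes of the clock were read from a list of 34, of which 21 were measured. Of the 21, 7 (33.3%) were above background on both arrays, beside 25.0% of all named genes, and 4 were above it on replicate 1 only. Of all 8251 named genes, 585 were above it on 1 array only, whichever of the arrays that was. The number above it on replicate 1 only was not counted for all named genes. The threshold was lower on replicate 1 (474.4) than on replicate 2 (622.2). The nuclear receptor Nr1d1 (REV-ERB alpha), which represses Arntl, gave 560.9 on replicate 1 and 767.0 on replicate 2 and was above background on both. Nr1d2, its relative REV-ERB beta, gave 574.7 and 528.9, and Rora, which activates through the same element, gave 518.8 and 491.4, both above the threshold on replicate 1 only. The probe sets of Rora disagree, since its second set gave 17.6 and 7.2. The brighter set has the suffix s, and the second has none. Csnk2a1 and Fbxw11, named after their values were seen, were also above the threshold on replicate 1 only, each in its brightest set. The signal of that set of Csnk2a1 was nevertheless higher on replicate 2 (494.6 and 605.9). The other sets of Csnk2a1 gave 187.3 and 217.9, 148.4 and 178.2, and 39.3 and 26.1, all below background. The brightest set of Fbxw11 gave 549.4 and 437.2. Its other set gave 352.8 and 418.7, below background and higher on replicate 2. Hlf was not analysed here.

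Kinases and cofactors of the loop in that list were above background in part. Gsk3a, a kinase that phosphorylates clock proteins, gave 3430.9 and 4033.0, and Ddb1, a subunit of ubiquitin ligases that act on CRY1, gave 3489.1 and 3057.7 in its brightest set. The other sets of Ddb1 disagree with each other, at 2259.6 and 1960.3 in one and 65.0 and 89.4 in the other, the last far below background. Csnk1d, the casein kinase that marks PER proteins for degradation, gave 1351.6 and 1338.5 in its brightest set. A second set of Csnk1d, at 873.1 and 1000.0, was also above background on both arrays, and its other sets were below it, at 356.4 and 77.5 and at 139.9 and 85.4. Csnk1e, its close relative, gave 139.1 and 159.8 and was below background. The others above background were Wdr5 (1218.9 and 1135.4), Csnk1a1 (1074.9 and 931.3) and Nono (886.9 and 938.7), a chromatin adaptor, a casein kinase and an RNA-binding partner of PER. The second set of Csnk1a1 gave 801.9 and 800.8, above background on both arrays, and that of Nono gave 140.8 and 140.1, below it. Nfil3, a repressor that competes for D-boxes, gave 245.1 and 254.6, and 170.0 and 349.3 in its other set, all below background. Npas2, which can replace CLOCK as the partner of ARNTL, gave 23.6 and 20.0, at percentile 7.91. Of the 21 genes, 1 differed by over 2-fold, Sirt1 at 15.1 on replicate 1 and 85.4 on replicate 2, far below background on both and named after its value was seen.

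Genes known to cycle in mouse liver or to be driven by the clock there were read from a list of 27, of which 20 were measured. Of the 20, 15 (75%) were above background on both arrays, beside 3 of the 10 clock genes and 25.0% of all named genes. That list was drawn from genes of liver function, and the difference in share was not tested. The brightest were Alas1, the first enzyme of haem synthesis (22285 and 24056), Pck1 and G6pc of gluconeogenesis (8887 and 10023, and 6705 and 6493), Upp2, a uridine phosphorylase (7603 and 7347), and the glucose transporter Slc2a2 (3966 and 4084). The median percentile of all 20 measured output genes was 88.8, beside 64.2 for the 10 clock genes. The 2 of 20 that differed by over 2-fold, Tfrc (-1.42) and Tsc22d3 (1.65, not above background on either array), were named after their values were seen. The difference of Tfrc is that of its brightest set (2381.5 and 887.2), which has a suffix. Its other set gave 77.0 and 71.4, below background on both arrays, so the sets of Tfrc disagree.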

How the data were processed

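Mouse liver RNA was measured on 2 arrays. The deposited values are signal intensity, 1 per probe set and array, on a linear scale and all above 0; how they were scaled and summarised, and with which software, is not given in the sources used here. No scanner output was used, and the table has no further columns. Of 12488 probe sets, 66 are controls. The platform annotation names 1 gene for 10855, several for 396 and none for 1237; 10839 of the 10855 matched RefSeq gene identifiers (GRCm38.p6), with 0 symbols changed. For each gene the probe set of highest mean log2 signal was used. Percentiles are among 8251 named genes. The background threshold was the 95th percentile of 75 measured genes (of 87 listed) of other tissues. Log2 differences had the median of the brighter probe sets subtracted. With 1 group there was no test.

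The members and lists were chosen with earlier results of these data known. The genes named are all members, the 5 brightest of each list, the other clock genes above background on both arrays and 9 fixed clock genes; exceptions are stated. Steps were tested on simulated data. Alternatives were other representatives, probe sets without suffixes, quantile normalization, other thresholds, log2(value + 32), no shift, members above background only, and each array alone. Software was pandas 2.3.3 and numpy 2.4.6 under Python 3.11.15, with matplotlib 3.10.9 for figures.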

Additional observations from a re-analysis of the deposited data

How the results depend on the processing

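The count of clock genes above background on both arrays was 3 and moved most with the threshold: it was 5 at the 90th percentile of the genes of other tissues and 1 at the second brightest of them. It was 4 when the probe sets of a gene were averaged and 4 without suffixed probe sets, where Cry1 drops out and 9 genes remain. In both settings the threshold was computed anew, and the signals of the 9 genes with 1 probe set did not change. The count was 3 with quantile normalization, and 3 to 4 with each array alone. The median percentile ran from 61.2 to 67.9 with each array alone. The other clock and output genes above background numbered 22, from 17 to 27 over all alternatives. The 22 were 7 of the 21 other clock genes and 15 of the 20 output genes. The count was 27 at the 90th percentile and also with replicate 1 alone, where 1 array is enough for a call. The share of all named genes is given for the main threshold only, so no such share stands beside the counts under alternatives. The median log2 difference of 0.16 ran from 0.14 to 0.22. The 0 clock genes over 2-fold became 1 when probe sets were averaged, where Cry1 had a difference of -1.47 because its dim sets enter. Under the alternatives, 48 of 49 log2 differences of single genes moved from the main value by less than the SD among sets of like signal. Of these differences, 0 changed sign. Of 49 log2 signals, 48 moved by less than the SD between the arrays. That of Cry1 fell to 4.81 with the mean of its sets. The signal of 1 array alone cannot move by more than that SD. For the 9 genes with 1 probe set, averaging sets or leaving out suffixed sets changed neither signals nor differences. Such cases could not count as moved, so these counts say little about stability. An alternative list of background genes was not at hand and was not run. No paired analysis was possible because there is 1 group. The low signal of 6 of the 10 genes against the background limits what their differences can show.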
